A study of Mus musculus with 22 samples.

Results

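The matrix proteases and their inhibitors are taken here as every gene in the 4 RNA files whose symbol is Mmp with a number and at most 1 letter, or Adamts, Adamtsl or Timp with a number. This gave 50 genes (23 Mmp, 19 Adamts, 5 Adamtsl and 3 Timp) of the 21032 gene symbols in the files. The RNA came from primary mouse embryonic fibroblasts (MEFs), cells grown from the body of C57BL/6 embryos at E13.5 and used at passage 3 to 4. The cells were of 2 genotypes, Lsh KO (Lsh-/-) and wild type (WT, Lsh+/+), with 2 libraries each, called KO1, KO2, WT1 and WT2 after genotype and replicate number. Lsh, encoded by Hells, is an SNF2-type ATPase that remodels chromatin and is required for normal DNA methylation. The labels call the libraries biological replicates, and do not say which part of the gene was deleted, whether embryos were pooled or what libraries with the same replicate number have in common. The comparison asks which of these genes differ in fibroblasts that lack Lsh.

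Fibroblasts build and remodel the extracellular matrix with secreted and membrane-bound metalloproteinases. The Mmp enzymes are zinc proteases made as inactive precursors that cut collagens and other matrix proteins, and most are controlled at the level of transcription. The Adamts enzymes are secreted relatives that process procollagens and cleave proteoglycans. The Adamtsl proteins resemble the ancillary part of Adamts enzymes but have no catalytic domain. The Timp proteins are small secreted inhibitors that block the catalytic site of Mmp enzymes and, for Timp3, of several Adamts enzymes.

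Levels are in RPKM, the reads on a transcript divided by its length in kilobases and by the mapped reads in M (mega), so they can be set side by side between genes. Depth, recovered from olfactory receptor rows in which RPKM times length came in whole reads, was 122.5 and 136.1 M reads in KO1 and KO2, and 132.2 and 176.6 M in WT1 and WT2. Hells was at 0.430 and 0.550 RPKM in KO1 and KO2, against 0.865 and 1.06 RPKM in WT1 and WT2, a direction that follows the labels though it did not pass the test (adjusted p 0.200 in limma with genotype and replicate number). The fibroblast markers fixed for the check (Col1a1, Col1a2, Pdgfra, Pdgfrb, Thy1, Vim, Postn and Twist1) were all above the filter on low values, and their summed level was 2389 and 2569.7 RPKM in KO1 and KO2, against 2318 and 2638 RPKM in WT1 and WT2. The files themselves differ by replicate number: those of replicate 1 hold 26886 transcript rows and those of replicate 2 hold 21136. The replicate number thus also marks a difference in the rows of the files, and the labels do not say whether it marks a batch. For this reason each KO library is set beside the WT library of its own number.

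Of the 50 genes, 46 had rows in all 4 libraries and 31 passed the filter of at least 0.5 RPKM in at least 2 libraries. Those were 12 Mmp, 13 Adamts, 4 Adamtsl and 2 Timp genes. Another 15 genes stayed below the filter, and none of them exceeded 0.470 RPKM. The remaining 4, Adamts13, Mmp7, Mmp20 and Mmp21, had rows in the replicate 1 files alone. The levels of the 46 genes spanned from 0 to 521.2 RPKM. The highest were the inhibitors Timp2 and Timp3 and the membrane protease Mmp14, and each of these exceeded 100 RPKM in every library.

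**Figure D1:**
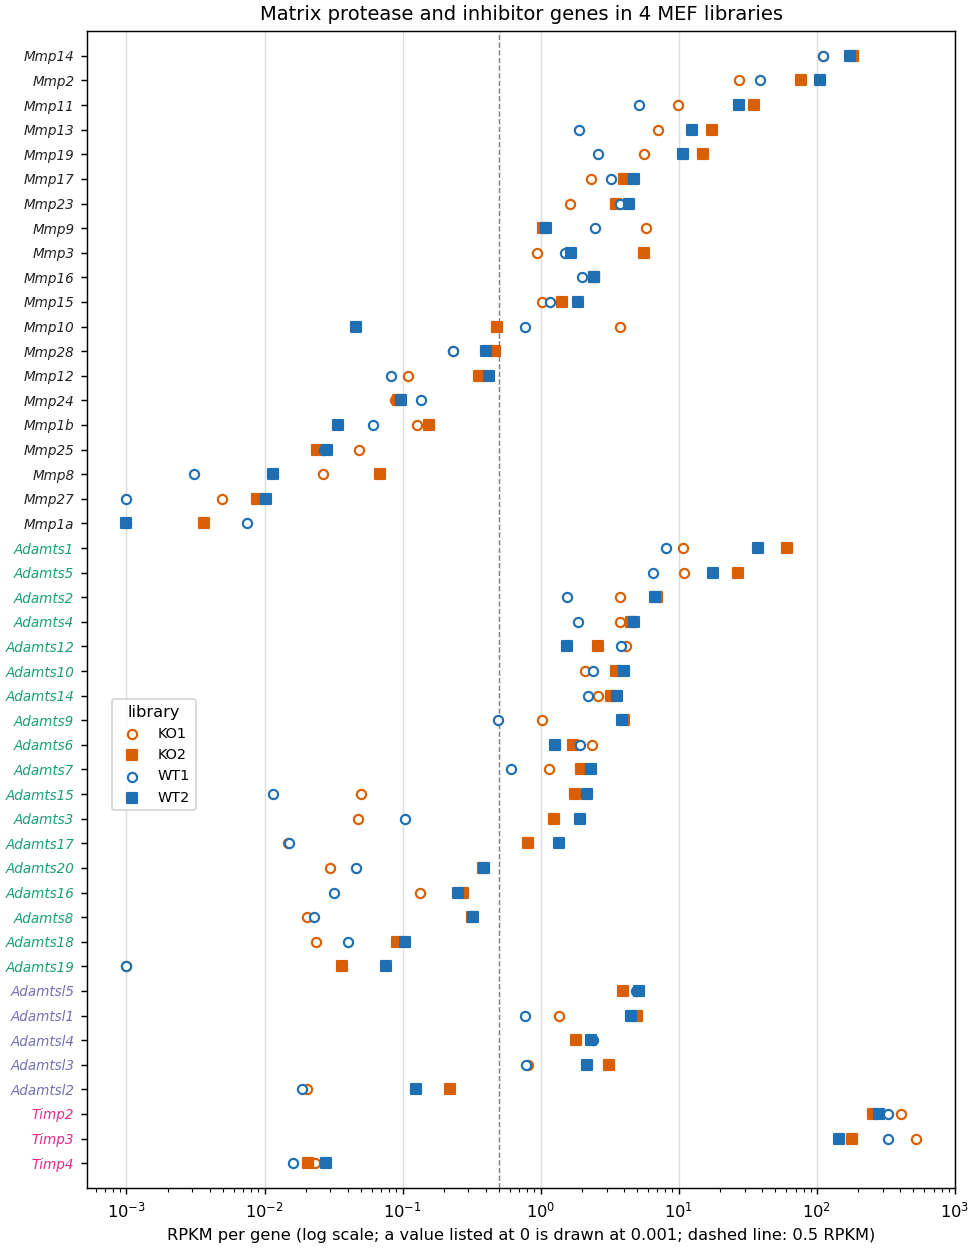
RPKM of the 46 genes with rows in all 4 libraries, on a log axis, by family and mean level; orange marks KO and blue WT libraries, open circles replicate 1 and filled squares replicate 2. Timp2, Timp3 and Mmp14 lie above 100 RPKM in all libraries, and for genes such as Adamts1, Mmp11 and Adamts15 the squares lie to the right of the circles.

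No matrix protease or inhibitor passed the test of KO against WT. In limma on log2(RPKM + 0.5) with genotype as the only term, 0 of the 31 genes passed an adjusted p of 0.05 and 0 had an unadjusted p below 0.05, where 0 of all 11149 genes tested (0%) passed and 41 had an unadjusted p below 0.05. When the replicate number was added to the fit 0 of the 31 passed again, where 75 of all genes (0.673%) did. In that fit 9 of the 31 had an unadjusted p below 0.05, where 9.1% of all genes did: 7 were higher in KO (4.18% of all genes) and 2 lower (4.92%). Those higher in KO were Mmp10, Mmp11, Mmp13, Mmp19, Adamts1, Adamts5 and Timp3, and those lower were Mmp2 and Mmp23. The values below are therefore descriptions of 4 libraries, and p-values in either fit rest on only 2 libraries per genotype.

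Within both replicate numbers 14 of the 31 genes were higher in KO than in WT, where 22.5% of all genes were, and 8 were lower, where 31.4% of all genes were. The other 9 lay on opposite sides in the 2 numbers. The median log2 difference of the 31 genes was 0.23 for replicate 1 and 0.01 for replicate 2, beside -0.07 and 0.02 over all genes. A difference of at least 1.5 times in the same direction within both numbers was met by Mmp10 alone, which was higher in KO (0.816% of all genes met this upward and 0.825% downward), on the log2(RPKM + 0.5) scale. The KO and WT libraries did not overlap for 2 of the 31 genes, Mmp16 and Mmp23, where 13.4% of all genes did not overlap.

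**Figure D2:**
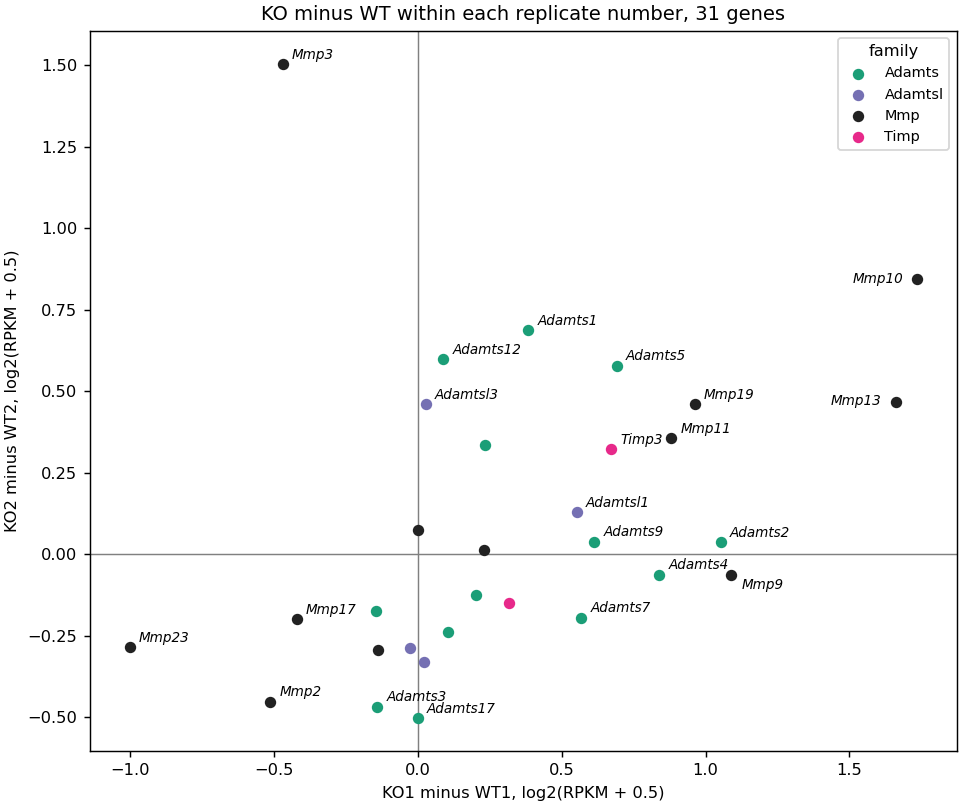
KO minus WT on log2(RPKM + 0.5) for the 31 genes that passed the filter, for replicate 1 on the horizontal and replicate 2 on the vertical axis, coloured by family; the genes farthest from 0 are named. Mmp10 and Mmp13 lie farthest to the right, Mmp2, Mmp17 and Mmp23 lie below 0 on both axes, and Mmp3 lies on opposite sides.

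The interstitial collagenases cut the triple helix of fibrillar collagen, and Mmp13 (chromosome 9, 7272514 to 7283334 on the build mm9, plus strand) was the main one in these cells. Mmp13 was at 7.11 and 17.4 RPKM in KO1 and KO2, against 1.91 and 12.5 RPKM in WT1 and WT2. It was higher in KO in both numbers, but KO1 lay below WT2, so the genotypes overlapped. The log2 difference was 1.66 for replicate 1 and 0.47 for replicate 2, and 1.06 pooled (SE 0.95 with genotype only and 0.29 with the replicate number). Its adjusted p in limma was 1.00 with genotype only and 0.284 with the number as a term. The other collagenases were near 0. Mmp1b had at most 0.155 RPKM and Mmp8, the collagenase of neutrophils, at most 0.0689 RPKM. Mmp1a was listed at 0 in KO1 and WT2. Both Mmp1b and Mmp8 had a higher value in each KO library than in either WT library, at levels below the filter. The share of all genes below the filter with such a pattern was not counted, so no direction is read from these values.

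Mmp13 shares its locus with most of the secreted Mmp genes of narrow expression. On chromosome 9, between 7272514 and 7699417 (mm9), 10 Mmp genes lie within 426.9 kb, in the order Mmp13, Mmp12, Mmp1b, Mmp3, Mmp1a, Mmp10, Mmp8, Mmp27, Mmp20 and Mmp7. Only Mmp13, Mmp3 and Mmp10 of these 10 reached 1 RPKM in any library. These 3 genes, called active here, did not follow the same pattern over the libraries: Mmp13 was highest in KO2, Mmp3 in KO2 and Mmp10 in KO1. Mmp10 reached 1 RPKM in KO1 alone. Mmp12, the macrophage elastase, lies between Mmp13 and Mmp1b and was at 0.109 and 0.356 RPKM in KO1 and KO2, against 0.0818 and 0.421 RPKM in WT1 and WT2. Mmp27, listed at 0 in WT1, reached at most 0.0103 RPKM.

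**Figure D3:**
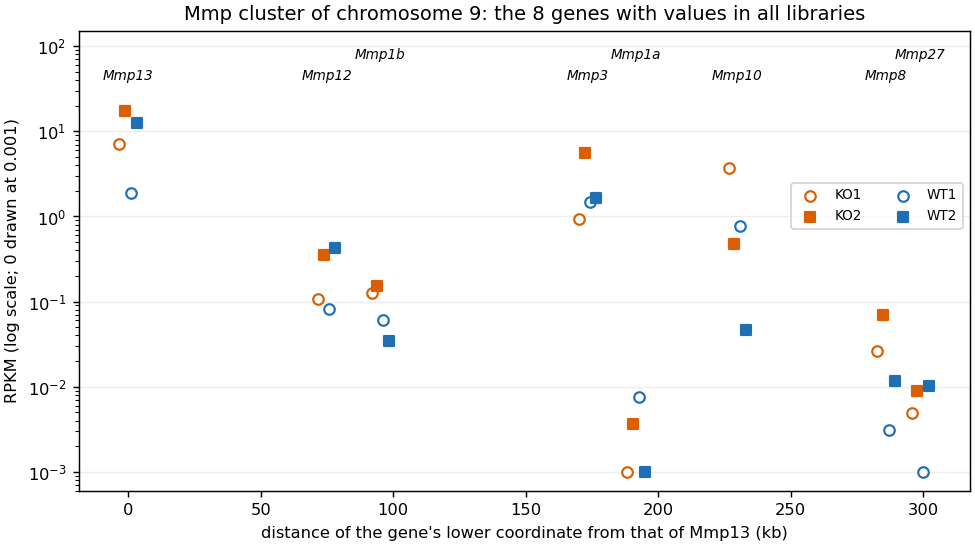
RPKM, on a log axis, of the 8 chromosome 9 Mmp genes with rows in all 4 libraries, at the distance of each gene from Mmp13 in kb; orange marks KO and blue WT libraries, open circles replicate 1 and filled squares replicate 2, drawn side by side. Mmp13, Mmp3 and Mmp10 reach 1 RPKM, and the genes between them stay below it.

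The promoters of the 3 active genes are shown because they share a pair of motifs close to the start, a pair that inactive genes of the cluster also have. The sequences are the 150 bases before the annotated start on the plus strand, from RefSeq on GRCm38.p6, a different build from that of the files. Capitals mark TGACTCA or TGAGTCA, the same AP-1 motif read on either strand, and TATAAA.
Mmp13 (chr9:7272364-7272513): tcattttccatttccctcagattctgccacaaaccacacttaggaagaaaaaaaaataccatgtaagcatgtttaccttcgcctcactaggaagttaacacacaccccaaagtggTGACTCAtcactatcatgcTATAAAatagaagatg
Mmp10 (chr9:7502192-7502341): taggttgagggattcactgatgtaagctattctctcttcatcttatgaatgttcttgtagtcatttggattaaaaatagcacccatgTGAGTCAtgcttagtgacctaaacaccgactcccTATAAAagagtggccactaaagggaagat
Mmp3 (chr9:7445672-7445821): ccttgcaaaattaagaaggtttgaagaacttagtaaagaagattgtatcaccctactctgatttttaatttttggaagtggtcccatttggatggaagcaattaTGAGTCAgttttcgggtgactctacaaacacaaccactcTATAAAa
The AP-1 motif begins 35 bases before the annotated start in Mmp13, 63 bases before it in Mmp10 and 46 bases before it in Mmp3, and TATAAA follows it in each. Promoter windows of 300 bases (250 before and 50 after the start) were found for 35 of the 50 genes, 38 windows in all. The AP-1 motif was in a window of 7 of the 10 chromosome 9 Mmp genes (Mmp13, Mmp12, Mmp1b, Mmp3, Mmp1a, Mmp10 and Mmp7) and of 0 of the other 25 genes. It was in 5.20% of all 32851 windows. TATAAA, on either strand, was in a window of 9 of the 10 cluster genes and 3 of the other 25, beside 13.6% of all windows. Mmp12, Mmp1b, Mmp1a and Mmp7 have the AP-1 motif, with TATAAA on either strand in the same window. These genes were below 0.5 RPKM or listed at 0, so neither the AP-1 motif nor the pair separated active from inactive genes of the cluster.

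The cluster promoters were also poor in CG, the dinucleotide that carries DNA methylation in mammals. Their windows held a median of 1 CG, against 22 in the windows of the other genes and 7 over all windows. For contrast, the 150 bases before the start of Mmp14 and Timp3, which were among the highest of all these genes, are shown with CG in capitals (RefSeq, GRCm38.p6, plus strand).
Mmp14 (chr14:54431448-54431597): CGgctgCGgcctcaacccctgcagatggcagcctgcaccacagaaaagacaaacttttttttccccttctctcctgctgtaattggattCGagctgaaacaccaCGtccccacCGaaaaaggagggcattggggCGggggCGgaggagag
Timp3 (chr10:86300262-86300411): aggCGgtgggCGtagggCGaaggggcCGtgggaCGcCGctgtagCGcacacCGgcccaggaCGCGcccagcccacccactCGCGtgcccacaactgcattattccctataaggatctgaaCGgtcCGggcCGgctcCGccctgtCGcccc
These stretches hold 7 and 17 CG, where those of Mmp13, Mmp10 and Mmp3 hold 1 each. DNA methylation was not measured in the files used here, so these counts describe sequence alone.

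The stromelysins cut proteoglycans and non-fibrillar matrix proteins and can activate other Mmp precursors. Mmp10, stromelysin-2, was at 3.74 and 0.480 RPKM in KO1 and KO2, against 0.773 and 0.0463 RPKM in WT1 and WT2. It was higher in KO in both numbers, yet KO2 lay below WT1. The RPKM ratio was 4.84 for replicate 1 and 10.4 for replicate 2, where both values were below 0.5 RPKM. On log2(RPKM + 0.5) Mmp10 differed by 1.74 for replicate 1 and by 0.84 for replicate 2. Its log2 difference was 1.29 (SE 0.89 with genotype only, 0.22 with the number), with adjusted p-values in limma of 1.00 and 0.0511, the lowest of the 31 genes in the fit with the number. That value depends on the scale: with a pseudocount of 0.1 the adjusted p in the same limma fit was 0.0152, and with a pseudocount of 1 it was 0.236. Mmp3, stromelysin-1, was at 0.934 and 5.62 RPKM in KO1 and KO2, against 1.49 and 1.66 RPKM in WT1 and WT2. KO2 alone stood apart, and the differences within the numbers had opposite signs (KO at 0.628 of WT for replicate 1 and 3.39 times WT for replicate 2). Mmp11, stromelysin-3, which unlike most secreted Mmp enzymes is released in active form, was at 9.91 and 35.2 RPKM in KO1 and KO2, against 5.15 and 27.4 RPKM in WT1 and WT2. KO was higher in both numbers (log2 differences 0.88 and 0.36), and the libraries of replicate 2 were above those of replicate 1 in both genotypes.

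The gelatinases cut denatured collagen and basement membrane collagen. Mmp2, the gelatinase typical of fibroblasts, was at 27.2 and 76.7 RPKM in KO1 and KO2, against 39.02 and 105.2 RPKM in WT1 and WT2. KO was at 0.697 of WT for replicate 1 and 0.729 for replicate 2, a log2 difference of -0.48 (SE 0.16 with the replicate number) with an adjusted p of 0.311 in the limma fit that includes the number. Mmp9 was at 5.82 and 1.03 RPKM in KO1 and KO2, against 2.47 and 1.10 RPKM in WT1 and WT2. KO1 was the highest library, and the replicate 2 libraries were nearly level, so Mmp9 had no common direction. Macrophages are a known source of Mmp9. Of the macrophage and myeloid markers 9 of 10 passed the filter, and all 9 of these were lower in KO within both numbers, where 31.4% of all genes were. The summed level of the 10 markers was 8.21 and 79.1 RPKM in KO1 and KO2, against 57.8 and 162.6 RPKM in WT1 and WT2. Their part in the Mmp9 values was not tested, and in such bulk RNA fewer cells of a type and less RNA per cell cannot be told apart. Of the neutrophil markers, S100a9 and Mpo were present and were at 0 in KO1, WT1 and WT2.

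The membrane-type Mmp enzymes stay on the cell surface, where Mmp14 cuts collagen and, together with Timp2, activates the precursor of Mmp2. Mmp14 was at 110.4 and 182.9 RPKM in KO1 and KO2, against 110.5 and 173.6 RPKM in WT1 and WT2. The replicate 2 libraries were the higher ones, and KO and WT of the same number differed by -0.002 and 0.07 on the log2 scale. Mmp14 made up 61.8% and 52.7% of the summed Mmp level in KO1 and KO2, and 63.3% and 50.1% in WT1 and WT2. Mmp16 was at 2.434 and 2.445 RPKM in KO1 and KO2, against 2.002 and 2.417 RPKM in WT1 and WT2. Both KO libraries lay above both WT libraries, though KO1 and WT2 nearly coincided. Mmp15 and Mmp17 were lower in KO within both numbers, with Mmp17, an Mmp held on the membrane by a lipid anchor, at 2.30 and 4.04 RPKM in KO1 and KO2, against 3.26 and 4.71 RPKM in WT1 and WT2. Mmp24 and Mmp25 stayed below 0.2 RPKM.

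Among the other Mmp genes, Mmp19 was higher and Mmp23 lower in KO within both numbers. Mmp19, a secreted enzyme, was at 5.56 and 14.9 RPKM in KO1 and KO2, against 2.61 and 10.7 RPKM in WT1 and WT2. Its log2 difference was 0.71 (SE 0.18 with the replicate number), and the adjusted p in that limma fit was 0.149. Mmp23, an enzyme anchored by its amino end, was at 1.63 and 3.50 RPKM in KO1 and KO2, against 3.78 and 4.38 RPKM in WT1 and WT2. Both KO libraries lay below both WT libraries, at 0.433 of WT for replicate 1 and 0.799 for replicate 2, with an adjusted p of 0.277 in the limma fit that includes the number. Mmp28, expressed at 0.232 to 0.470 RPKM, was the highest gene below the filter.

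The proteoglycan-cleaving Adamts genes held most of the Adamts signal. Adamts1 and Adamts5, which cut versican and aggrecan, lie 55.0 kb apart on chromosome 16. Adamts1 was at 10.7 and 61.02 RPKM in KO1 and KO2, against 8.10 and 37.7 RPKM in WT1 and WT2. Adamts5, the main aggrecanase of mouse cartilage, was at 10.9 and 26.8 RPKM in KO1 and KO2, against 6.55 and 17.8 RPKM in WT1 and WT2. Both neighbours were higher in KO within each number, Adamts1 by 1.32 and 1.62 times and Adamts5 by 1.66 and 1.51 times. The adjusted p in the limma fit that includes the number was 0.259 for Adamts1 and 0.145 for Adamts5. Summed over the 7 proteoglycan-cleaving genes, the level was 26.5 and 98.9 RPKM in KO1 and KO2, against 17.1 and 67.1 RPKM in WT1 and WT2, 1.55 and 1.47 times higher in KO. Adamts1 and Adamts5 made up most of each sum, and of the other genes only Adamts9 was higher in KO in replicate 2. Of the rest of this group, Adamts4 was at 3.74 and 4.54 RPKM in KO1 and KO2, against 1.87 and 4.76 RPKM in WT1 and WT2, and its sign differed between the numbers. Adamts9 was higher in KO by 0.61 on the log2 scale for replicate 1 and by 0.04 for replicate 2.

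Adamts15, another proteoglycan-cleaving gene, split by replicate number. It passed the filter through the replicate 2 libraries alone, as did Adamts3 and Adamts17, so a split in this direction was fixed for these 3 genes. Adamts15 was at 0.0496 and 1.76 RPKM in KO1 and KO2, against 0.0115 and 2.17 RPKM in WT1 and WT2. Its neighbour Adamts8, 20.1 kb away on chromosome 9, showed the same split at a lower level, with 0.0202 and 0.318 RPKM in KO1 and KO2, against 0.0229 and 0.326 RPKM in WT1 and WT2. Adamts3, a procollagen processing enzyme, and Adamts17 did likewise: Adamts3 had 0.0474 and 1.25 RPKM in KO1 and KO2, against 0.104 and 1.92 RPKM in WT1 and WT2. Adamts17 had 0.0149 and 0.815 RPKM in KO1 and KO2, against 0.0151 and 1.36 RPKM in WT1 and WT2. Adamts3 was lower in KO within each number, while Adamts17 was nearly level in replicate 1.

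The other procollagen N-proteinases, which trim the amino end of fibrillar procollagens, were Adamts2 and Adamts14. Adamts2 was at 3.74 and 6.95 RPKM in KO1 and KO2, against 1.55 and 6.76 RPKM in WT1 and WT2. WT1 was the low library, and within replicate 2 KO and WT differed by 0.04 on the log2 scale. Adamts14 differed from WT by 0.20 and -0.13 on the log2 scale in the 2 numbers. Adamts12, which with Adamts7 cleaves the cartilage protein COMP, ran against most of the family, with 4.12 and 2.61 RPKM in KO1 and KO2, against 3.84 and 1.55 RPKM in WT1 and WT2. It was higher in KO in each number and lower in replicate 2 in each genotype.

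The Adamtsl proteins, which bind the matrix and in part fibrillin microfibrils, were present at modest levels. Adamtsl5 was at 4.95 and 3.97 RPKM in KO1 and KO2, against 4.86 and 5.12 RPKM in WT1 and WT2. Adamtsl1 was at 1.36 and 5.00 RPKM in KO1 and KO2, against 0.767 and 4.53 RPKM in WT1 and WT2. Adamtsl3 was at 0.804 and 3.15 RPKM in KO1 and KO2, against 0.779 and 2.15 RPKM in WT1 and WT2. Adamtsl1 and Adamtsl3 were thus higher in KO within both numbers, by at most 0.55 on the log2 scale. Adamtsl4 was at 2.34 and 1.80 RPKM in KO1 and KO2, against 2.39 and 2.30 RPKM in WT1 and WT2, and Adamtsl2 stayed below 0.22 RPKM.

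The inhibitors were the most abundant of these transcripts. Timp3, which binds to the matrix and blocks Mmp, Adam and Adamts enzymes, was at 521.2 and 179.8 RPKM in KO1 and KO2, against 327.1 and 143.8 RPKM in WT1 and WT2. It was 1.59 times higher in KO for replicate 1 and 1.25 times for replicate 2, with a log2 difference of 0.50 (SE 0.15 with the replicate number) and an adjusted p of 0.253 in that limma fit. Timp2, the partner of Mmp14, was at 404.7 and 253.2 RPKM in KO1 and KO2, against 325.1 and 281.04 RPKM in WT1 and WT2. Its differences had opposite signs in the 2 numbers. The ratio of Timp3 to Timp2 was 1.29 and 0.710 in KO1 and KO2, against 1.01 and 0.512 in WT1 and WT2, higher in KO within each number. Timp4 was nearly silent, with 0.0160 to 0.0280 RPKM. Timp1 is not analysed here, since the rows cover chromosomes 1 to 19.

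Summed over genes, the families showed the replicate number more than the genotype. The 20 Mmp genes summed to 178.7 and 346.9 RPKM in KO1 and KO2, against 174.7 and 346.6 RPKM in WT1 and WT2. The 18 Adamts genes summed to 42.8 and 121.3 RPKM in KO1 and KO2, against 29.8 and 90.2 RPKM in WT1 and WT2, 1.44 and 1.34 times higher in KO. The 3 Timp genes summed to 925.9 and 433.04 RPKM in KO1 and KO2, against 652.3 and 424.8 RPKM in WT1 and WT2. The Mmp sum was thus nearly equal between the genotypes within each number, but Mmp14 held 50.1% to 63.3% of it and its groups went different ways. In replicates 1 and 2, KO over WT was 3.67 and 1.41 for the collagenases and 1.97 and 1.42 for the stromelysins. It was 0.796 and 0.731 for the gelatinases, and 0.993 and 1.04 for the membrane types. The Adamts sum was higher in KO in both numbers. Adamts1 and Adamts5 held that difference in replicate 2: the other 16 Adamts genes summed to 21.1 and 33.5 RPKM in KO1 and KO2, against 15.1 and 34.7 RPKM in WT1 and WT2. Of the 13 Adamts genes tested, KO exceeded WT in both numbers for 6, where 22.5% of all genes did. It lay below WT in both for 3, where 31.4% of all genes did. The median log2 difference of the 13 in replicate 2 was -0.063. The ratio of the Mmp sum to the Timp sum was 0.193 and 0.801 in KO1 and KO2, against 0.268 and 0.816 in WT1 and WT2. This Timp sum covers Timp2, Timp3 and Timp4 and lacks Timp1, so the ratio is not the full balance of proteases and inhibitors. An exact permutation test of 2 against 2 libraries cannot give a p below 0.333, so these sums were not tested.

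**Figure D4:**
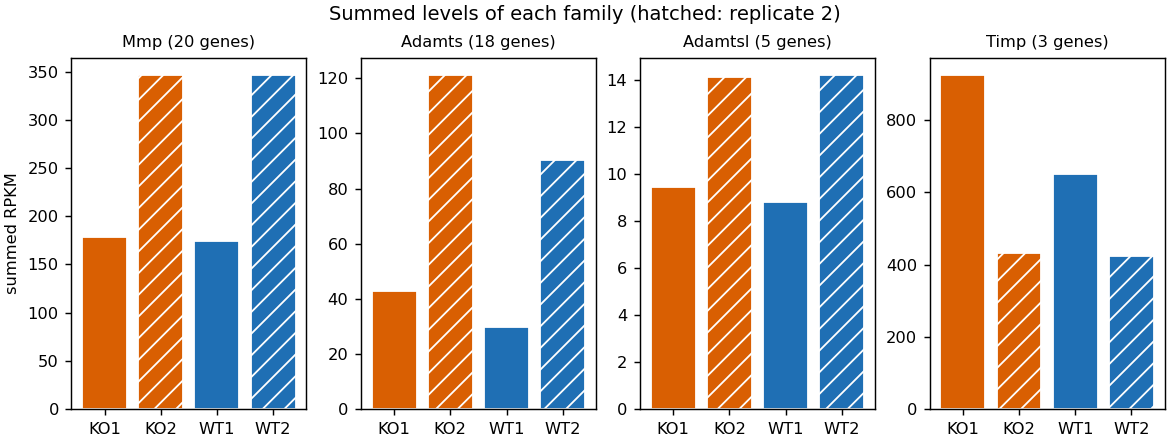
Summed RPKM of the genes of each family with rows in all 4 libraries, 1 bar per library, orange for KO and blue for WT, hatched for replicate 2. The Mmp bars follow the replicate number, the Adamts bars are higher in KO within each number, and the Timp bars are highest in KO1.

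The difference between the replicate numbers was larger than that between the genotypes for 28 of the 31 genes (90.3%), where this held for 81.4% of all genes. In the limma fit of genotype and number together, 24 of the 31 differed between replicate 2 and replicate 1, where 47.7% of all genes did. Of these 19 were higher in replicate 2 (35.8% of all genes) and 5 lower (11.9%). Adamts3, Adamts15 and Adamts17 passed the filter through the replicate 2 libraries alone and Mmp10 through those of replicate 1 alone, so these 4 had to differ and their calls are no evidence. Of the other 27 genes, 20 were called, 16 higher and 4 lower in replicate 2, a count added after seeing the data. The replicate 2 libraries did not overlap those of replicate 1 for 28 of the 31 genes, where 74.5% of all genes did not. Both this count and the 28 genes that open this paragraph include those 4, for which the filter fixed the outcome. Among the other 27 genes, Adamts1 (log2 difference 2.30, SE 0.17) and Mmp11 (2.04, SE 0.18) were the highest, with limma adjusted p-values of 3.01e-06 and 1.08e-05. Mmp13 (1.83), Mmp19 (1.59) and Mmp2 (1.45) were higher in replicate 2 as well. The 5 lower in replicate 2 were Mmp10 (-1.67), Mmp9 (-1.47), Timp3 (-1.36), Adamts12 (-0.83) and Timp2 (-0.44). With the replicate number as the only term 19 of the 31 were called, and in that form of the fit 9 to 23 were called with 1 library left out, 10 without KO2 and 9 without WT2. Of 25 collagen genes tested, set beside them as other matrix genes, 14 were higher and 4 lower in replicate 2. Culture, embryo and processing differences between the numbers cannot be told apart here.

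**Figure D5:**
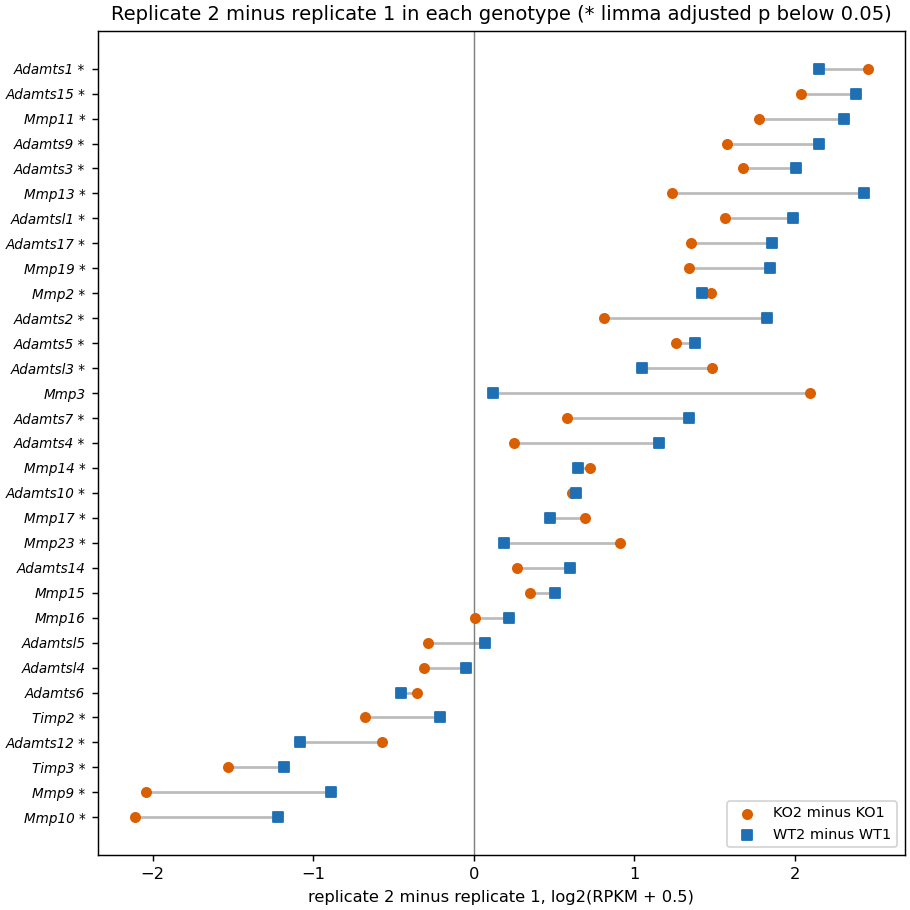
Replicate 2 minus replicate 1 on log2(RPKM + 0.5) for the 31 genes, in KO (orange circles) and WT (blue squares), joined by a line; an asterisk marks a limma adjusted p below 0.05. Both genotypes lie on the same side of 0 for all genes but Adamtsl5, and Mmp3 has the longest line.

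Related proteases and inhibitors were read from lists chosen with earlier results of these data known. Of 19 tested other extracellular proteases, 0 rose and 1 fell in KO in the limma fit that includes the number, where 0.377% and 0.296% of all genes did; this was Adam8, a membrane protease of leukocytes, with 0.0996 and 1.203 RPKM in KO1 and KO2, against 0.646 and 2.75 RPKM in WT1 and WT2 (adjusted p 0.0329). Of 14 tested inhibitors and activators 0 rose and 0 fell. Furin, which activates Mmp11 and Mmp14, was at 49.1 and 23.9 RPKM in KO1 and KO2, against 45.3 and 32.9 RPKM in WT1 and WT2. Reck, a membrane inhibitor of Mmp enzymes, was at 2.65 and 8.29 RPKM in KO1 and KO2, against 2.15 and 9.26 RPKM in WT1 and WT2. Of 15 tested substrates and partners 0 rose and 1 fell, Col2a1, the collagen of cartilage. Of the 15 transcription factors known to act on Mmp genes 0 rose and 0 fell.

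Some of these related genes differed between the replicate numbers by far more than the proteases. Fosl1, a subunit of AP-1, was at 33.1 and 0.101 RPKM in KO1 and KO2, against 23.9 and 0.256 RPKM in WT1 and WT2. Fos, another AP-1 subunit, was high in replicate 2 instead, with 6.28 and 248.8 RPKM in KO1 and KO2, against 4.84 and 274.3 RPKM in WT1 and WT2. Of the 15 transcription factors, 6 were called higher in replicate 2 in limma, Fos among them, and 4 lower, Fosl1 among them. Over all genes 35.8% were called higher and 11.9% lower. The part of these factors in the protease levels was not tested.

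Marker lists of other cell types give the setting of the protease values. Mmp13 is also made by hypertrophic chondrocytes and osteoblasts. Of 6 tested markers of those cells 1 rose and 1 fell in KO: Col10a1, the collagen of hypertrophic cartilage, was at 8.79 and 23.9 RPKM in KO1 and KO2, against 4.65 and 11.7 RPKM in WT1 and WT2 (limma adjusted p 0.0329 with the number as a term), and Col2a1 was at 0.714 and 2.63 RPKM in KO1 and KO2, against 3.92 and 5.42 RPKM in WT1 and WT2 (0.0439). The summed level of the 8 markers was 35.8 and 44.2 RPKM in KO1 and KO2, against 27.7 and 43.04 RPKM in WT1 and WT2, and Bglap was at or below 0.0476 RPKM. Their part in the Mmp13 values was not tested. Of 9 tested macrophage and myeloid markers 3 fell (C1qc, Fcgr3 and Cd14), of 2 epithelial markers 1 fell (Krt19), and of 1 endothelial, 2 skeletal muscle and 8 fibroblast markers 0 rose and 0 fell. For all of these marker lists the share over all genes in the same limma fit was 0.377% raised and 0.296% lowered.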

How the data were processed

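RNA was measured in 4 of the 22 samples in the labels (2 per genotype); the other 18, chromatin samples and inputs, are not analysed here. RNA was depleted of rRNA and selected for poly-A tails before Illumina sequencing, per the labels' protocols. The files deposited by the authors hold RPKM per RefSeq transcript; the readme names Cufflinks, and the submitters' processing notes name Partek and mm9. The sources used here do not name the aligner.

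Transcript rows were summed per symbol and chromosome: 16266 symbols were in all 4 libraries, 5 of them on 2 chromosomes, giving 16271 genes. The 11149 genes that reached 0.5 RPKM in 2 or more libraries were compared on log2(RPKM + 0.5), a scale that understates changes of low genes, with limma 3.58.1 (trend, robust) in R 4.3.3, two-sided, with Benjamini-Hochberg adjustment over all genes and a threshold of 0.05. The planned design had genotype as the only term. The replicate number was an alternative; it is printed throughout because the files differ by number. It leaves 1 residual degree of freedom, and its p-values rest mainly on 9.68 prior degrees of freedom. The labels do not say that numbers pair samples; deviations of same-numbered libraries correlated at 0.875 across genes. The fits were tested on simulated data. A step in depth was called whole within 0.02 of a read, which held for at least 96.0% of the loci used.

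The genes, lists and tests were chosen with earlier results of these data known. Genes named by rule were Hells, Mmp13, those past the threshold, the 5 of highest mean level per family, those differing by 1.5 times in 1 direction within both numbers, and those differing by 2 on the log2 scale between numbers in both genotypes; other genes named were chosen after their values were seen. A search for protein motifs was planned and not made.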

Additional observations from a re-analysis of the deposited data

Results flagged for a closer look

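A value above 0 was seen in rows outside the comparisons. Mmp21, known for its part in left-right patterning, has a row in the replicate 1 files alone, and was at 0.00439 RPKM in KO1 and listed at 0 in WT1. The number of reads behind this value was not recovered; it is too low to give a direction. Adamts13, Mmp7 and Mmp20, the other genes of these families in the replicate 1 files alone, were listed at 0 in both libraries. With 1 library per genotype no comparison was made.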

How the results depend on the processing

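With genotype as the only term, 0 genes and 0 of the matrix protease and inhibitor genes passed with any alternative, and 0 to 0 when a library was left out. The replicate number as a block raised the count over all genes to 75. With the block, 37 genes were called with a pseudocount of 0.1, 59 with a pseudocount of 1, 70 with a filter of 1 RPKM, 90 with median-ratio scaling, 187 with quantile normalization, 3 with the transcript of the highest mean and 77 without trend and robust variance; 0 were called with no filter. Of the matrix genes, the block called 1 with a pseudocount of 0.1 (Mmp10), 1 without trend and robust variance (Mmp10) and 2 with quantile normalization (Adamts5 and Mmp19), and 0 otherwise. The cause was not tested. The adjusted p of Mmp10 with the block ran from 0.0152 to 0.487 over the alternatives. Between replicate numbers 24 of the matrix genes were called with genotype in the fit and 19 with the number as the only term; in the second form 9 to 23 were called with 1 library left out. The direction of KO minus WT turned for Adamts15 with a pseudocount of 0.1 (0.069, with or without the block). With 1 library left out it held for Mmp10, Mmp23, Adamts6, Adamtsl4, Adamtsl5 and Mmp16. The log2 difference ran from 0.059 to 0.51 for Adamts6 and from 0.011 to 0.23 for Mmp16. For Adamtsl4 the range was -0.31 to -0.0027, and for Adamtsl5 it was -0.30 to -0.012. Leaving out a library unbalances the replicate numbers between the genotypes, and the log2 difference then ran from 0.23 to 2.35 for Mmp10 and from -1.10 to -0.19 for Mmp23, without a change of direction, and changed direction over these ranges: Adamts1 -0.69 to 1.76, Adamts2 -0.37 to 1.46, Adamts3 -1.31 to 0.70, Adamts4 -0.19 to 0.96, Adamts5 -0.052 to 1.32, Adamts7 -0.48 to 0.86, Adamts9 -0.75 to 1.40, Adamts10 -0.48 to 0.16, Adamts12 -0.20 to 0.88, Adamts14 -0.26 to 0.34, Adamts15 -1.26 to 1.12, Adamts17 -1.18 to 0.68, Adamtsl1 -0.65 to 1.33, Adamtsl3 -0.50 to 0.99, Mmp2 -1.22 to 0.26, Mmp3 -0.53 to 1.56, Mmp9 -0.51 to 1.54, Mmp11 -0.53 to 1.77, Mmp13 -0.15 to 2.28, Mmp14 -0.33 to 0.40, Mmp15 -0.47 to 0.035, Mmp17 -0.66 to 0.036, Mmp19 -0.21 to 1.63, Timp2 -0.26 to 0.42, Timp3 -0.27 to 1.26. The summed levels moved by less than the spread between libraries of a genotype with the transcript of the highest mean or median-ratio scaling, both added after seeing the data. That spread was wide, with an Mmp sum of 178.7 RPKM in KO1 and 346.9 RPKM in KO2. The median-ratio factors ran only from 0.910 in KO1 to 1.09 in KO2, so this check could hardly fail. It does not show whether the smaller differences between the genotypes in these sums would hold. The 2 libraries per genotype limit the precision of every comparison.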

Other observations

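Some of these genes have several transcript rows. For Mmp19, 1 of 2 rows held 82.6% and 82.5% of the gene's RPKM in KO1 and KO2, against 84.6% and 83.8% in WT1 and WT2. For Adamtsl5, the main row held 77.1% and 81.4% in KO1 and KO2, against 67.7% and 78.1% in WT1 and WT2, and WT1 was the lowest library. For Adamts20, whose summed level stayed below the filter, 1 of 3 rows held 42.4% and 65.2% in KO1 and KO2, against 49.6% and 67.4% in WT1 and WT2, so its share followed the replicate number. The split of Mmp28 was the same in every library, at 71.4% for 1 of 2 rows.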
